A study of Mus musculus with 4 samples.

Results

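The 9 genes described here are Oasl2, Rnf213, Trim30a, Stat2, Irf7, Ifit2, Ifih1, Parp14 and Xaf1, all genes of the interferon response. The list was selected on levels measured in these same libraries, so counts and medians over it describe the genes and do not test them. All 9 are among the 32285 genes counted in each library, of which 27155 had at least 1 UMI in the nuclei kept. Interferons are signalling proteins that cells release when sensors meet foreign or misplaced nucleic acid. Bound to their receptors, they act through JAK kinases and STAT transcription factors to switch on a large set of interferon-stimulated genes, whose products block viral replication, tag proteins and raise antigen presentation. In the brain the response is best known in microglia, the resident macrophages, and in cells of the vessel wall, and a group of microglia with high interferon-stimulated genes has been described around amyloid plaques and with age.

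The RNA came from single nuclei of frozen hippocampus of female C57BL/6J mice, which were 8 weeks old when 10 weeks of housing with a running wheel for voluntary exercise began. The 4 groups were App NL-G-F knock-in mice with exercise, App NL-G-F knock-in mice without exercise, WT mice with exercise and WT mice without exercise, with 1 library each. In App NL-G-F mice the endogenous App gene carries humanised and disease-linked changes in the part that gives amyloid-beta, so App is under its own promoter and its UMI count does not check the genotype. The labels name a running wheel in the housing of all 4 groups and do not give the number of mice per library. With 1 library per group, every comparison is between 2 libraries, no p-value can be given, and the 95% intervals (exact Poisson for levels, exact conditional binomial for ratios, Clopper-Pearson for shares of nuclei) cover counting error only.

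Of the deposited barcodes, 8745, 9278, 6508 and 10213 nuclei were kept in exercised knock-in, knock-in without exercise, exercised WT and WT without exercise, with 54392555 to 76605488 UMIs a library. The shallowest deposited barcode held 1199 UMIs in the exercised knock-in library and 500 to 504 in the other 3. Any 2 libraries shared 20 to 42 barcode sequences, at most 0.486% of the smaller one. The knock-in libraries stood apart from each other over all genes: with all kept nuclei summed, 22.8% of 17302 genes were over 1.5-fold higher in exercised knock-in than in knock-in without exercise, whereas 5.91% of 17315 genes were over 1.5-fold higher in exercised WT than in WT without exercise. One granule cell cluster held 3191 of the 3298 granule nuclei of the exercised knock-in library, 1 oligodendrocyte cluster held 1398 of its 1409 oligodendrocyte nuclei, and another held 1447 of the 1506 oligodendrocyte nuclei of knock-in without exercise, so these classes are compared across different clusters. Microglia-like nuclei formed 1 cluster in all 4 libraries, and so did a vascular class, endothelial-like by its markers with the mural genes Vtn and Rgs5 among its leading genes. Levels are given as CPM, the UMIs of a gene per 1000000 UMIs of its class in that library. A gene counts as measured in a comparison when both libraries together hold at least 50 of its UMIs in the class.

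The genes lie on 7 chromosomes (GRCm38, GENCODE M21), and all are protein coding. Ifih1, the cytoplasmic sensor of long double-stranded RNA also called MDA5, is at chr2:62595798-62646255 on the minus strand. Stat2, part of the factor that binds interferon-stimulated response elements, is at chr10:128270559-128292849 on the plus strand. Irf7, a transcription factor that drives type I interferon genes, is at chr7:141262706-141266481 on the minus strand and overlaps Phrf1 on the other strand. Oasl2, an oligoadenylate synthetase-like antiviral protein, is at chr5:114896936-114912234 on the plus strand. Ifit2, which binds viral RNA and limits its translation, is at chr19:34550694-34576419 on the plus strand. Rnf213, a giant ubiquitin ligase known in humans as a moyamoya disease gene, is at chr11:119393100-119487418 on the plus strand and overlaps the antisense transcript A930037H05Rik. Trim30a, which dampens Toll-like receptor signalling in mouse, is at chr7:104409025-104465193 on the minus strand beside its paralogs Trim30b, Trim30c and Trim30d. Parp14, an ADP-ribosyltransferase, is at chr16:35832874-35871544 on the minus strand and overlaps the unnamed transcript Gm49730 on the same strand. Xaf1, a pro-apoptotic partner of XIAP, is at chr11:72301629-72313733 on the plus strand. UMIs at overlapping genes and near-identical Trim30 stretches may be split or mixed by the counting.

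The RefSeq promoter table (GRCm38.p6, 250 bases before to 50 bases after each start) holds 10 promoters of 8 of the genes. They were searched for the letters GAAANNGAAA and, as the other strand, TTTCNNTTTC, the core of the interferon-stimulated response element, which 1131 of all 32851 promoters hold (3.44%). The letters were found in 4 of the 10 promoters, those of Stat2, Ifih1 and both starts of Trim30a. They are shown because the results in neurons turn on Stat2 and Trim30a, with the matching letters in capitals. The first is the 250 bases before the Stat2 start (chr10:128270248-128270497, plus strand), where the match lies 222 bases before the start. The second is the 250 bases before the outer Trim30a start (chr7:104465194-104465443, minus strand), with the match 36 bases before it. The others are 30 bases around the match at the inner Trim30a start (chr7:104446104-104446133, minus strand) and in Ifih1, just past its start (chr2:62646206-62646235, minus strand).
Stat2: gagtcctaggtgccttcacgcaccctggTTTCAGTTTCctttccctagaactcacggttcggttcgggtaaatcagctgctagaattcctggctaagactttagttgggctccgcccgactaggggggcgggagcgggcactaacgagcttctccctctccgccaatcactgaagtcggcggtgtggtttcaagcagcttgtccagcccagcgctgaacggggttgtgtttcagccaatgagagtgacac
Trim30a outer: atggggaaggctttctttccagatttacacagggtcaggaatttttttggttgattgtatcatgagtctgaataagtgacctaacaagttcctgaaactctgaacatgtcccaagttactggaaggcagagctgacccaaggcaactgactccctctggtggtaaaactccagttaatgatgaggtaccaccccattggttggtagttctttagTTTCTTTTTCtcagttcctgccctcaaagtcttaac
Trim30a inner: ttgtttttagTTTCTTTTTCtcagttcctg
Ifih1: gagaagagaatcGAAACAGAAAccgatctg
The Trim30a starts share the same letters at the match, TTTCTTTTTC, and the letters that follow it. A match describes these letters and is not a binding site shown by these data.

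Across classes, the vascular nuclei had the highest mean level of 8 of the 9 genes, and microglia the highest of Trim30a. Because the mean is over 4 libraries of different groups, its SD holds the differences between groups too. Rnf213 averaged 93.4 ± 34.6 CPM in vascular nuclei, 67.0 ± 61.5 in microglia and 39.5 ± 8.4 in astrocytes (SD over 4 libraries). Oasl2 averaged 66.5 ± 22.0 in vascular nuclei and 18.9 ± 19.4 in microglia, and Parp14 averaged 61.4 ± 11.99 and 51.8 ± 28.7 in the same classes. For all 3 genes the vascular and microglial values overlapped between libraries. The Irf7 level was 28.2 ± 10.5 in vascular nuclei, above microglia in every library pair, with 44.4% of all Irf7 UMIs in the vascular class. Trim30a averaged 105.6 ± 50.4 in microglia and 54.6 ± 7.5 in vascular nuclei, overlapping each other, while its vascular values lay above those of every astrocyte library.

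**Figure D1:**
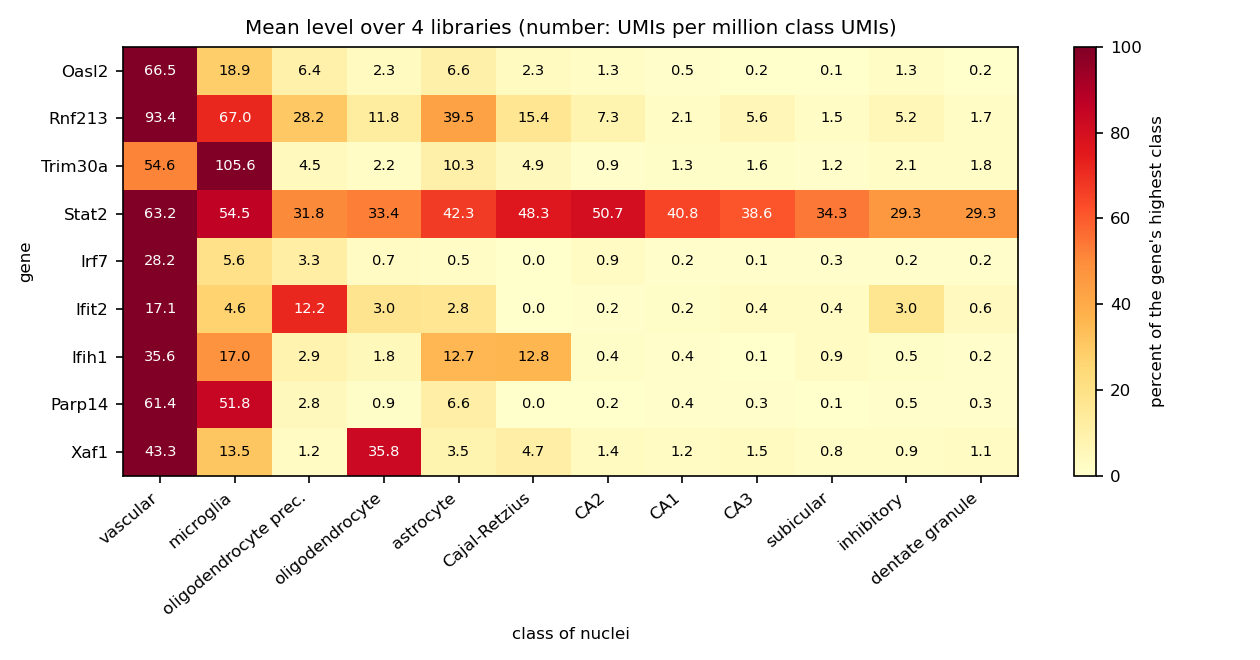
Mean level of the 9 genes (rows) in 12 classes of nuclei (columns), as CPM averaged over 4 libraries (number in each cell). Colour gives the percent of the gene's own highest class; 8 genes peak in vascular nuclei, Trim30a in microglia, and Stat2 is the gene spread over all classes.

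Some genes were also seen well outside the vascular and microglial classes. Xaf1 averaged 35.8 ± 3.4 CPM in oligodendrocytes, next to 43.3 ± 8.8 in vascular nuclei, and 43.2% of its UMIs came from oligodendrocytes. Ifit2 averaged 12.2 ± 2.0 in oligodendrocyte precursors, and 22.0% of its UMIs came from inhibitory neurons, where its level was 3.0 ± 0.9. Ifih1 averaged 35.6 ± 10.9 in vascular nuclei, 17.0 ± 12.2 in microglia, 12.8 ± 11.4 in Cajal-Retzius neurons, on 8 UMIs over 4 libraries, and 12.7 ± 8.9 in astrocytes. Stat2 was the exception, with 16.04 to 94.8 CPM in every class and library. For 8 of the 9 genes the lowest vascular library lay above the highest value in granule, CA1, CA2, CA3, subicular or inhibitory neurons, and Stat2 was the gene for which they overlapped.

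Microglia differed widely between libraries. The class held 316, 143, 38 and 127 nuclei in exercised knock-in, knock-in without exercise, exercised WT and WT without exercise, with median depths of 2611, 1294, 1771.5 and 1649 UMIs. Summed over the 9 genes, microglia held 712 member UMIs or 614 CPM (569 to 660) in exercised knock-in, 77 or 257 (203 to 322) in knock-in without exercise, 29 or 157 (105 to 225) in exercised WT, and 82 or 326 (259 to 404) in WT without exercise. The exercised knock-in library stood above the other 3, and its interval met none of theirs. The 8 genes used as microglia markers summed to 3483, 4023, 2455 and 5988 CPM in these libraries in the same order. Exercised WT was thus lowest in these markers and in the sum of the 9 genes. The CA1 markers in the class summed to 1038, 552, 1655 and 703 CPM. What this mix adds to the differences was not tested.

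In CPM, though not by fold, Rnf213 gave the widest gap to the next library. It had 156 CPM in exercised knock-in microglia (181 UMIs) and 40.1 in knock-in without exercise (12 UMIs). In exercised WT it had 16.2 (3 UMIs), and in WT without exercise 55.6 (14 UMIs). Exercised knock-in was 3.89-fold above knock-in without exercise, a log2 ratio of 1.96 (1.12 to 2.94), and 9.62-fold above exercised WT, a log2 ratio of 3.27 (1.70 to 5.56) that rests on 3 WT UMIs. Oasl2 showed the same order of the knock-in libraries, with 47.4 CPM in exercised knock-in (55 UMIs) and 13.4 in knock-in without exercise (4 UMIs). In exercised WT it had 10.8 (2 UMIs), and in WT without exercise 3.97 (1 UMI), so its ratio of 1.83 (0.39 to 3.75) for exercise in the knock-in rests on more UMIs than its ratio of 2.13 (0.21 to 5.21) to exercised WT.

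Parp14 had 90.5 CPM in exercised knock-in microglia, 43.5 in knock-in without exercise, 21.6 in exercised WT and 51.7 in WT without exercise. Its log2 ratio for exercise in the knock-in was 1.06 (0.22 to 2.01). Stat2 had 94.8, 26.7, 48.7 and 47.7 CPM in those 4 libraries, and its ratio for exercise in the knock-in was 1.83 (0.80 to 3.07). Stat2 was 1.95-fold higher in exercised knock-in than in exercised WT, at a log2 ratio of 0.96 (-0.01 to 2.13), and the ratio was -0.15 when each nucleus was thinned to 1500 UMIs. With all UMIs counted, Rnf213, Oasl2, Parp14 and Stat2 were each highest in exercised knock-in, while the other 3 libraries had no shared order.

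Trim30a was high in microglia of 3 libraries, with 158 CPM in exercised knock-in (183 UMIs), 104 in knock-in without exercise (31 UMIs) and 123 in WT without exercise (31 UMIs). In exercised WT it had 37.9 (7 UMIs), below the other 3. Its ratio for exercise in the knock-in was 1.52-fold, a log2 ratio of 0.61 (0.05 to 1.20), and it dropped to 0.44 when doublets were not left out. The ratio of knock-in to WT without exercise was -0.25 (-1.02 to 0.52), so a difference in either direction was not detectable at this depth.

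The remaining genes were sparse in microglia. Ifih1 had 35 UMIs or 30.2 CPM in exercised knock-in, 1 UMI in knock-in without exercise, 2 in exercised WT and 6 in WT without exercise. Xaf1 had 23, 5, 1 and 3 UMIs in those libraries, Irf7 had 11, 1, 1 and 1, and Ifit2 had 9, 2, 0 and 1. The 0 for Ifit2 in exercised WT allows a level of up to 16.2 CPM, the level of 3 UMIs, which is above the 7.76 seen in exercised knock-in.

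**Figure D2:**
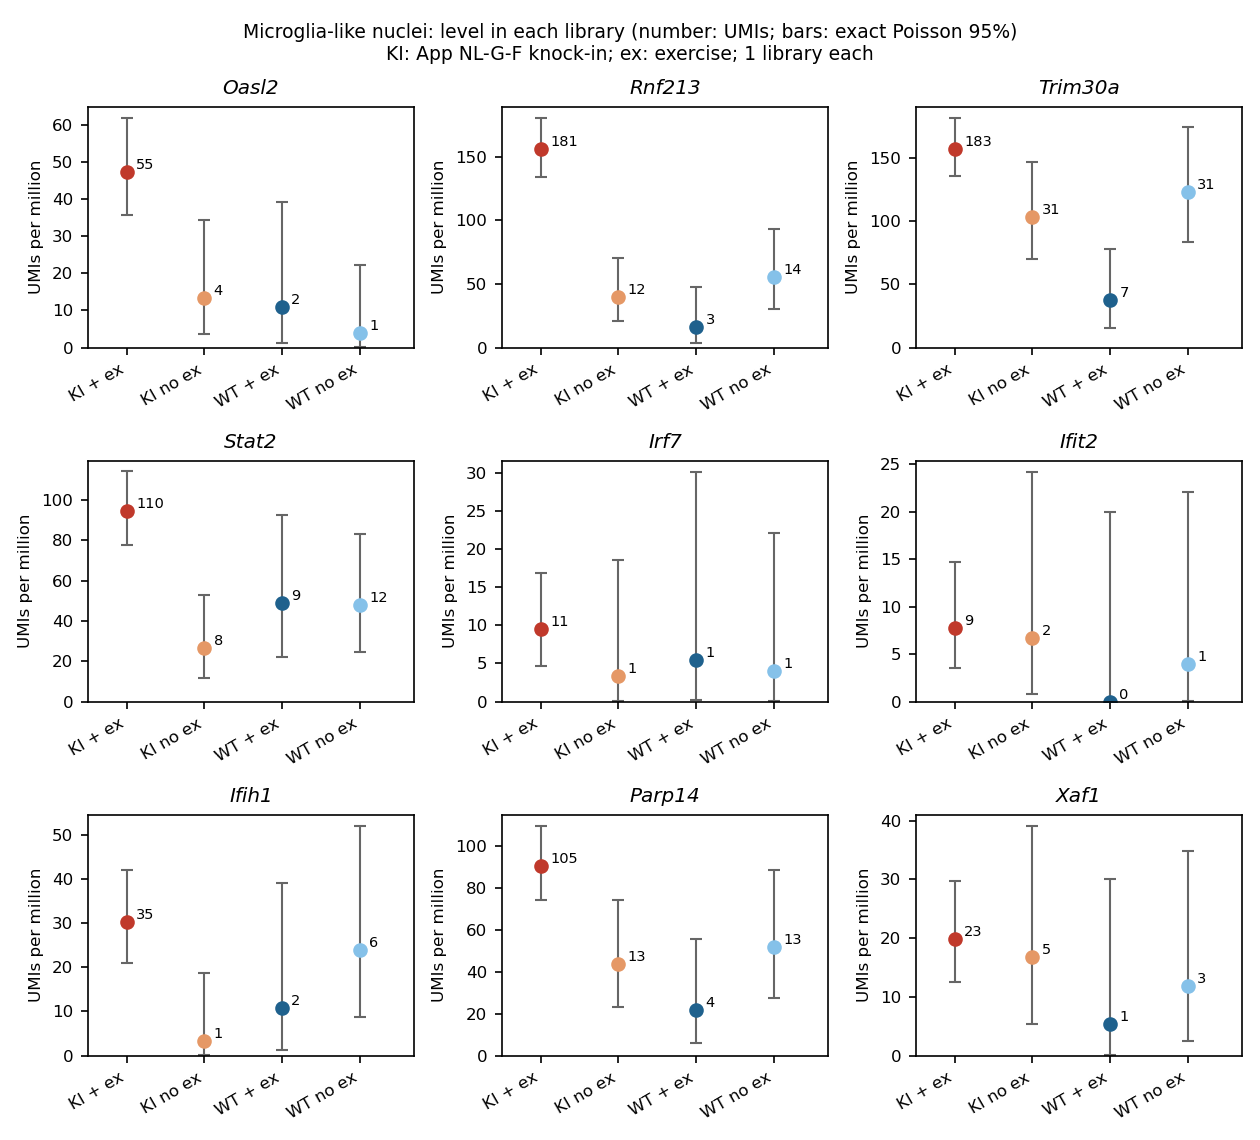
Level of each gene in microglia-like nuclei by library (CPM; the number beside a point is its UMI count, bars are exact Poisson 95% intervals, KI is App NL-G-F knock-in, ex is exercise). Exercised knock-in is highest for all 9 genes, at 156 against 16.2 to 55.6 for Rnf213, and most other points rest on under 20 UMIs.

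Counted by the 1.5-fold rule, all 5 genes measured for exercise in the knock-in were higher in exercised microglia, with a median log2 ratio of 1.83. The background was 25% of 5654 genes higher by as much, with a median over all genes of 0.12. For genotype with exercise the same 5 genes were measured and all were higher in the knock-in, at a median of 2.06, where 28.5% of 5199 genes were higher by as much and the median over all genes was 0.21. With nuclei thinned to 1500 UMIs, Trim30a and Stat2 were below 1.5-fold there, at 0.37 and -0.15. The comparisons share the exercised knock-in library, so they are not separate evidence. Microglia of that library held 1160213 UMIs, against 299068 in knock-in without exercise, 184938 in exercised WT and 251669 in WT without exercise. A gene low in exercised knock-in could seldom reach the minimum. The counts of members here, also those over 4 libraries, therefore favour genes high in that library. Over 4 libraries, 4 of the 5 genes with at least 50 UMIs were over 1.5-fold above each of the other libraries in exercised knock-in, beside 4.51% of 6632 genes. No gene passed the minimum for exercise in WT, and Trim30a alone did for genotype without exercise, where 11% of 2507 genes were higher and 20.8% lower by over 1.5-fold.

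Member UMIs lay together in some nuclei. UMIs of 2 or more of the 9 genes were found in 127 of 316 microglia of exercised knock-in (40.2%, 34.7 to 45.8), in 8.39% (4.41 to 14.2) of knock-in without exercise, in 7.89% (1.66 to 21.4) of exercised WT and in 7.87% (3.84 to 14.0) of WT without exercise. Dentate granule nuclei, at median depths of 6059.5, 4568, 6697.5 and 6125.5 UMIs, gave 1.001%, 0.310%, 0.773% and 1.004%. After thinning each nucleus to 1500 UMIs, which left out 10, 95, 13 and 47 shallower microglia, the share was 20.6% (16.2 to 25.6) in exercised knock-in and 2.08% (0.0527 to 11.1) in knock-in without exercise. It was 4.00% (0.101 to 20.4) in exercised WT, on 25 nuclei, and 6.25% (2.06 to 14.0) in WT without exercise. The exercised knock-in interval stayed above those of knock-in without exercise and WT without exercise, and met that of exercised WT.

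**Figure D3:**
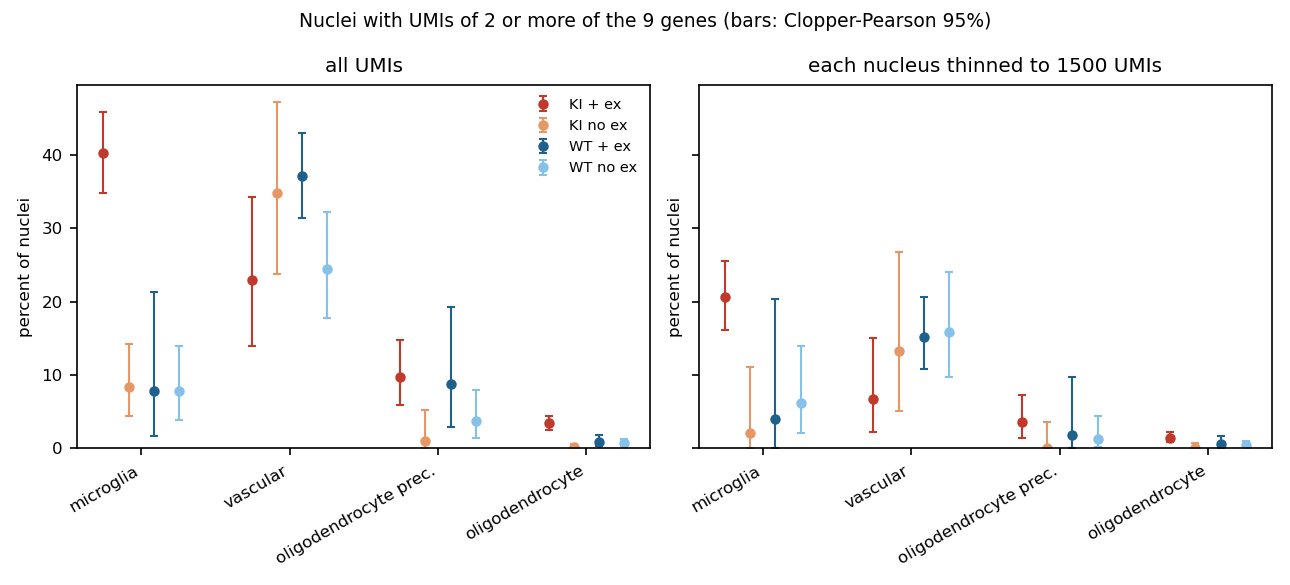
Percent of nuclei with UMIs of 2 or more of the 9 genes, by class and library, with all UMIs (left) and with each nucleus thinned to 1500 UMIs (right); bars are Clopper-Pearson 95% intervals. Exercised knock-in microglia stand at 40.2% and 20.6%, and in vascular nuclei the libraries overlap.

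A small set of nuclei held a large part of the UMIs. In exercised knock-in, 19 of 316 microglia (6.01%, 3.66 to 9.23) had UMIs of 5 or more of the genes and together held 270 of the 712 member UMIs, against 0 of 143, 0 of 38 and 1 of 127 in the other libraries. The 0 of 143 in knock-in without exercise allows a share of up to 2.10%, and the 0 of 38 in exercised WT up to 7.89%, each the share of 3 nuclei. The 1 such nucleus of WT without exercise was at 11618 CPM of border macrophage markers, genes of the macrophages along vessels and meninges. The 19 nuclei of exercised knock-in had a median depth of 3323 UMIs, against 2599 in the other 297, and 4181 against 3437 CPM of the microglia markers. Their border macrophage markers summed to 1171 CPM, against 130 in the other 297 nuclei, the endothelial markers to 125 against 58.8, and the T cell markers to 69.7 against 5.51. Over all microglia the border macrophage markers were at 194, 431, 141 and 385 CPM in exercised knock-in, knock-in without exercise, exercised WT and WT without exercise. Without every nucleus that held a UMI of these markers, the 9 genes summed to 584, 237, 132 and 254 CPM in those libraries, and the median log2 ratio for exercise in the knock-in was 1.89. In exercised knock-in this left out 14 nuclei with 57 of the 712 member UMIs. At this depth a nucleus without such a UMI may still be a border macrophage, and the part of these cells was not tested.

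Other genes of the pathway were followed through lists that leave the 9 genes out. In microglia, 7 of the 10 measured interferon-stimulated effectors were over 1.5-fold higher in exercised knock-in than in knock-in without exercise. None of the 10 was lower by as much, and their median log2 ratio was 0.99. Over all genes 25% were higher by as much, at a median of 0.12. Microglia of exercised knock-in held more UMIs, so a list gene low in that library could seldom reach the minimum. The list counts in microglia, as those of the members, therefore favour genes high in exercised knock-in. That none was lower describes the 10 genes measured and not the list. Sp100, a nuclear body protein, had 89.6 against 26.7 CPM, Herc6, an ISG15 ligase in mouse, 84.5 against 40.1, and Ddx60, a helicase that helps RNA sensing, 87.9 against 46.8. Among JAK-STAT and IRF genes 3 of 8 were higher, near the 25% of all genes, at a median of 0.19. Irf8, a factor of the macrophage lineage, had 286 against 184 CPM, a log2 ratio of 0.64 (0.22 to 1.08). Among sensors and adaptors 3 of 6 were higher, with Adar, which edits double-stranded RNA, at 109 against 46.8.

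Antigen presentation genes did not follow one direction in microglia. Nlrc5, the factor that drives class I genes, had 91.4 CPM in exercised knock-in against 16.7 in knock-in without exercise, a log2 ratio of 2.45 (1.18 to 4.10). The light chain gene B2m had 78.4 against 83.6, and H2-K1, chosen after its values were seen, had 42.2 against 83.6, a ratio of -0.98 (-1.71 to -0.23). Of the 4 measured, 1 was higher and 1 lower. Between exercised knock-in and exercised WT, 4 of 4 antigen presentation genes and 7 of 9 effectors were higher, beside 28.5% of all genes. These counts rest on 1 to 12 UMIs per gene in exercised WT. The minimum favours genes high in exercised knock-in in this comparison too. The receptor genes Ifnar1 and Ifngr1, chosen after their values were seen, had log2 ratios of 1.29 (0.24 to 2.55) and -1.25 (-1.97 to -0.50) for exercise in the knock-in. Interferons themselves were hardly seen in any kept nucleus: Ifnb1, Ifna2 and Ifna4 had 0 UMIs in all 4 libraries, Ifng had 1 UMI, in WT without exercise, and Ifnk 1 to 3 per library.

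In oligodendrocytes, the 9 genes summed to 114 CPM (104 to 125) in exercised knock-in, 81.3 (69.9 to 94.1) in knock-in without exercise, 83.2 (68.2 to 101) in exercised WT and 89.5 (78.7 to 101) in WT without exercise. Oasl2 and Parp14 were nearly confined to 1 library: Oasl2 had 28, 3, 1 and 1 UMIs, and Parp14 had 15, 0, 0 and 0 in those libraries in the same order. With 3 UMIs as the limit of a count of 0, Parp14 was at 3.63 CPM in exercised knock-in and at most at 1.36, 2.33 and 1.09 in the others. Rnf213 had 18.9 CPM in exercised knock-in and 9.49 in knock-in without exercise, a log2 ratio of 0.99 (0.28 to 1.76), and 11.7 and 7.28 in exercised WT and WT without exercise. Xaf1, with the 43.2% of its UMIs in this class, had 31.2, 35.2, 38.1 and 38.6 CPM, with ratios whose intervals all held 0.

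For exercise in the knock-in, 1 of 3 genes measured in oligodendrocytes was over 1.5-fold higher, Rnf213, beside 23.8% of 10191 genes. The median of the 3 was 0.53, against 0.06 over all genes. For genotype with exercise 2 of 3 were higher, beside 21% of 9492 genes, at a median of 0.69 against 0.07. Of these Rnf213, with an interval of -0.12 to 1.60, was at 0.02 with nuclei thinned to 1500 UMIs. In both comparisons Rnf213 passed the minimum through its UMIs in exercised knock-in. The class held 4136289 UMIs there, against 2213313 in knock-in without exercise and 1286200 in exercised WT. The oligodendrocyte nuclei of the libraries fell into separate clusters and had median depths of 2799, 1351, 1738 and 1792 UMIs. What this split adds to the differences was not tested.

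Oligodendrocyte precursors showed a wider gap on few UMIs. Their Rnf213 level was 69.7 CPM in exercised knock-in (67 UMIs), 6.41 in knock-in without exercise (2 UMIs), 14.6 in exercised WT (4 UMIs) and 22.2 in WT without exercise (12 UMIs). The exercised knock-in interval, 54.0 to 88.5, lay above the other 3. Its log2 ratio to knock-in without exercise was 3.44 (1.53 to 6.52), the 1 gene measured there, beside 24.5% of 4603 genes over 1.5-fold higher. Rnf213 passed the minimum through the 67 UMIs of exercised knock-in. Oasl2 had 16, 0, 2 and 1 UMIs, Parp14 9, 0, 0 and 1, and Irf7 9, 0, 1 and 0 in these libraries, each too few for a ratio. Stat2 was close in the exercised libraries, at 41.6 CPM in the knock-in and 43.9 in WT.

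In vascular nuclei, where 8 of the genes were highest, 3 libraries lay close together, and the higher sum of the other rested on 1 nucleus. The 9 genes summed to 596 CPM (515 to 685) in exercised knock-in, 417 (360 to 480) in knock-in without exercise, 415 (384 to 449) in exercised WT and 425 (371 to 486) in WT without exercise. The interval of exercised knock-in met none of the others. In that library 1 of 74 nuclei held 81 of the 195 member UMIs, with all 9 genes present, and without it the sum was 375. Each other library without its own highest nucleus was at 406 to 452. The nucleus of exercised knock-in had 22968 UMIs, 263 of them of the endothelial markers and 3 of the microglia markers. Without it, Rnf213 was at 98.6 in exercised knock-in, against 67.0 in knock-in without exercise, and Oasl2 at 62.4, against 56.2. With it, Oasl2, Rnf213 and Irf7 were over 1.5-fold above each other library, 3 of 8 genes, beside 7.33% of 9469 genes.

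For exercise in WT, 7 genes were measured in vascular nuclei, and none was over 1.5-fold higher or lower, where 12.1% of 8000 genes were higher and 11.6% lower. Their median log2 ratio was 0.05, and every interval held 0. For genotype with exercise 3 of 7 were higher, beside 15.2% of 7546 genes, and for exercise in the knock-in 3 of 4, beside 28.5% of 3932 genes, both with the nucleus above included. The vascular class of knock-in without exercise also held choroid plexus markers, at 14515 CPM, against 144 to 628 in the other 3 libraries. Their part in the values of that library was not tested. Between the WT libraries, the endothelial markers were at 5004 CPM with exercise and 8588 without, and the mural markers at 3164 and 5439. In exercised WT 1 nucleus held 184104 of the 1516845 UMIs of the class. What this difference in make-up adds to the WT ratios was not tested.

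Stat2 was the gene that neurons shared. It was highest in exercised knock-in in 6 of 6 neuron classes (Cajal-Retzius neurons apart), where 43.7% to 47.8% of all genes were highest in that library. It was highest there in 11 of all 12 classes, precursors being the exception. In the classes outside those 6, 25.0% to 33.5% of all genes were highest in that library. In vascular nuclei of exercised knock-in, 11 of its UMIs came from the 1 nucleus with 81 member UMIs. Without that nucleus the vascular class is not among the 11. In CA1 neurons Stat2 had 62.6 CPM in exercised knock-in (731 UMIs), 30.6 in knock-in without exercise, 29.5 in exercised WT and 40.6 in WT without exercise. In granule neurons it had 38.3, 25.6, 23.2 and 30.02, and in CA3 neurons 52.4, 28.5, 32.1 and 41.3 in the same libraries. In all 3 classes exercise went with a higher Stat2 level in the knock-in and a lower one in WT. In CA1 the log2 ratio for exercise was 1.03 (0.84 to 1.22) between the knock-in libraries, and between the WT libraries it was -0.46 (-0.66 to -0.26).

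These ratios have to be read against the whole library. In CA1, 45.5% of all genes were highest in exercised knock-in, and for exercise in the knock-in 25.3% of 12455 genes were over 1.5-fold higher, as were both genes measured there, Stat2 and Rnf213. Stat2 stood at the 90.3 percentile of genes in that comparison in CA1 and at the 76.3 percentile in granule neurons. It also stood over 1.5-fold above each other library in CA1, beside 8% of 13991 genes, in CA2, beside 7.47% of 8338, and in subicular neurons, beside 10.2% of 12025. Rnf213 in CA1 had 4.11, 1.503, 1.43 and 1.26 CPM in exercised knock-in, knock-in without exercise, exercised WT and WT without exercise, with 48, 16, 15 and 20 UMIs. It passed the minimum for exercise in the knock-in through the 48 UMIs of exercised knock-in, so its place among the genes measured favours a higher ratio.

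**Figure D4:**
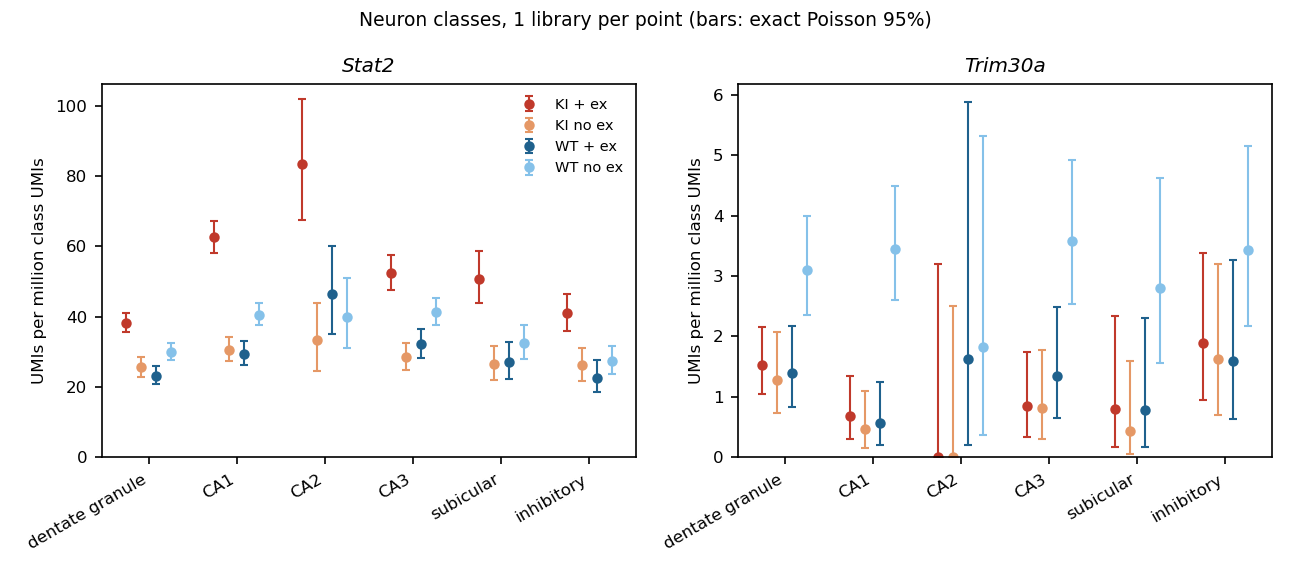
Stat2 (left) and Trim30a (right) in 6 neuron classes, as CPM in each library (bars: exact Poisson 95%; KI is App NL-G-F knock-in, ex is exercise). Stat2 is highest in exercised knock-in and Trim30a in WT without exercise in each class, though Trim30a in CA2 rests on 5 UMIs over 4 libraries. In CA1 Stat2 and Trim30a reach 62.6 and 3.45.

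Trim30a had another order in neurons. In CA1 it had 8, 5 and 6 UMIs in exercised knock-in, knock-in without exercise and exercised WT, and 55 in WT without exercise, which is 0.685, 0.470, 0.573 and 3.45 CPM. It was highest in WT without exercise in 6 of 6 neuron classes, where 13.8% to 20.8% of all genes were highest in that library. In CA2 it had 5 UMIs over 4 libraries, too few to give an order. Over granule, CA1, CA3 and inhibitory neurons together it had 58, 35, 42 and 176 UMIs, or 1.24 (0.944 to 1.61), 0.988 (0.688 to 1.37), 1.17 (0.843 to 1.58) and 3.34 (2.87 to 3.88) CPM. In CA1 exercised WT was lower than WT without exercise by a log2 ratio of -2.59 (-4.10 to -1.38), where 10.6% of 12466 genes were over 1.5-fold lower. The knock-in was lower than WT without exercise by -2.88 (-4.56 to -1.57), where 10.7% of 12693 genes were. Trim30a passed the minimum in both comparisons through the 55 UMIs of WT without exercise.

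Over 1.5-fold above each other library in WT without exercise, Trim30a belonged to 0.386% of 13991 genes in CA1 and 0.169% of 14815 in granule neurons. Of the paralogs, Trim30c was also highest in WT without exercise, with 1, 0, 2 and 7 UMIs in the same 4 neuron classes, while Trim30b had 3, 0, 0 and 0 and Trim30d 26, 8, 3 and 3. Granule neurons also held 1 difference for Rnf213 between the WT libraries, 2.86 CPM in exercised WT (39 UMIs) against 1.03 in WT without exercise (20 UMIs). Its log2 ratio was 1.47 (0.66 to 2.33), beside 2.16% of 13009 genes over 1.5-fold higher. Rnf213 passed the minimum there through the 39 UMIs of exercised WT.

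Single neurons could carry many member UMIs. One CA2 nucleus of exercised knock-in held 35 of the 134 member UMIs of its class, with 18 of 25 Rnf213 UMIs and all 5 Oasl2 UMIs. It had 19535 UMIs in all and 1 UMI of the microglia markers. One CA1 nucleus of exercised knock-in held 17 member UMIs of 6 genes among its 20714 UMIs, also with 1 microglia marker UMI. Across CA1, UMIs of 2 or more genes were in 4.42% of nuclei of exercised knock-in (3.29 to 5.80), 0.357% of knock-in without exercise, 1.02% of exercised WT and 1.74% of WT without exercise, at median depths of 9343, 6981.5, 10444 and 8705 UMIs. After thinning these shares were 0.181%, 0%, 0.103% and 0.113%, with intervals that overlapped.

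Astrocytes and the sparser neuron classes gave less. Astrocyte Rnf213 was at 28.9, 40.02, 49.4 and 39.6 CPM in exercised knock-in, knock-in without exercise, exercised WT and WT without exercise, on 11, 5, 45 and 36 UMIs. The ratio of exercised knock-in to exercised WT was -0.77 (-1.87 to 0.20), the 1 of 2 genes measured that was over 1.5-fold lower, beside 9.71% of 4778 genes. For exercise in WT neither Rnf213 nor Stat2 passed 1.5-fold in astrocytes, beside 4.89% of 6159 genes higher. In exercised WT 1 astrocyte held 17 of the 143 member UMIs, with 6 of the 12 Oasl2 UMIs. Cajal-Retzius neurons had 26, 8, 6 and 11 member UMIs in the 4 libraries, too few to compare.

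Summed over all kept nuclei, where fewer cells of a type and less RNA per cell cannot be told apart, all 9 genes were measured. For exercise in the knock-in 8 of 9 were over 1.5-fold higher, beside the 22.8% of genes given above, and the median log2 ratio was 1.30 against 0.09 over all genes. Oasl2 led with 2.87 against 0.864 CPM, a ratio of 1.73 (1.26 to 2.22), and Xaf1 was the gene that stayed at 0.19 (-0.09 to 0.48). For genotype with exercise 5 of 9 were higher, beside 20.7% of 17297 genes, at a median of 0.62 against 0.17. Ifih1 was lower there, at -0.51 (-0.90 to -0.13), below the fold limit. Rnf213, Trim30a and Irf7 had ratios of 0.62, 0.74 and 0.70, which edgeR TMM scaling lowered to 0.46, 0.58 and 0.55, under 1.5-fold. Without the vascular class, 8 of 9 were higher for genotype with exercise, beside 24.4% of 16992 genes, at a median of 1.01 against 0.23. Ifih1 was then at 0.18 (-0.30 to 0.65). Vascular nuclei were 0.846% of kept nuclei in exercised knock-in and 4.27% in exercised WT, and their part was not tested. For genotype without exercise 0 of 9 were higher and 1 lower, Trim30a, beside 14.9% and 8.21% of 17333 genes, at a median of 0.15 against -0.02.

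**Figure D5:**
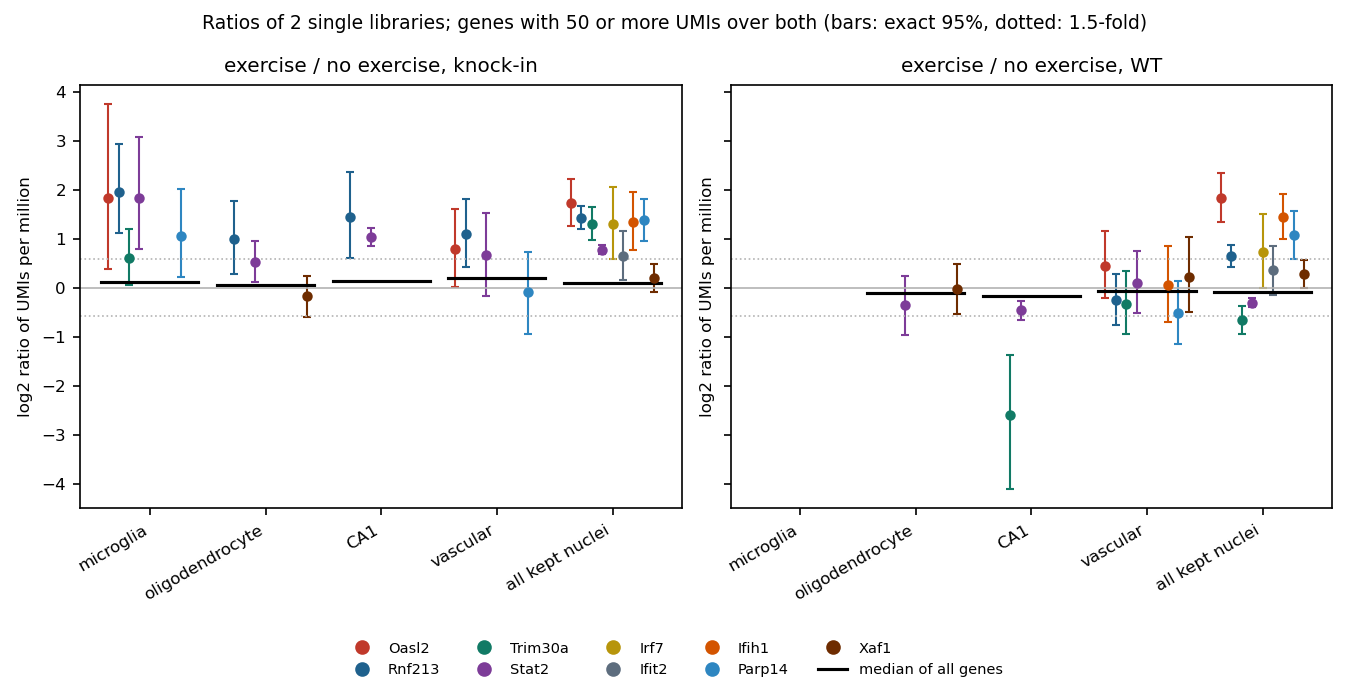
Log2 ratios of CPM for exercise in the knock-in (left) and in WT (right) by class, for genes with at least 50 UMIs over both libraries (bars: exact 95% intervals; dotted lines: 1.5-fold; black bars: median of all measured genes). In knock-in microglia all 5 genes lie above the dotted line, at 0.61 to 1.96; in WT vascular nuclei all intervals hold 0, while the summed nuclei reach 1.82 for Oasl2.

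For exercise in WT 5 of 9 were higher over all kept nuclei and 1 lower, Trim30a, beside 5.91% and 4.83% of genes, at a median of 0.64 against -0.10. The Trim30a ratio of -0.66 was -0.11 with nuclei thinned to 1500 UMIs, and -1.36 (-1.72 to -1.01) without the vascular class. Oasl2 had 2.22 CPM in exercised WT against 0.627 in WT without exercise, a ratio of 1.82 (1.34 to 2.33), and Ifih1 2.20 against 0.809, a ratio of 1.44 (0.997 to 1.90). Vascular nuclei, in which neither gene differed by as much, were 4.27% of kept nuclei in exercised WT and 1.44% in WT without exercise. Without the vascular class 2 of 8 measured genes were higher, Oasl2 and Ifih1, and 1 lower, Trim30a, beside 2.41% and 6.81% of 16988 genes, with a median of 0.09 against -0.14 over all genes, and Oasl2 had a ratio of 0.86. For exercise in the knock-in 8 of 9 were higher without that class too, beside 23.8% of 17138 genes, at a median of 1.56. Vascular nuclei were 0.846% of kept nuclei in exercised knock-in and 0.744% in knock-in without exercise.

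Other interferon-stimulated effectors were counted in the same summed nuclei. For exercise in WT 22 of 39 measured were over 1.5-fold higher and 1 lower, beside 5.91% and 4.83% of all genes, led by Ifit1, an RNA-binding relative of Ifit2, at 2.42 against 0.496 CPM. The next were Ifitm3, which blocks viral entry, at 13.3 against 3.16, and the ubiquitin-like Isg15 at 3.15 against 0.875. For exercise in the knock-in 21 of 38 were higher and 3 lower, beside 22.8% and 20.2% of all genes, and Ifitm3 was among the lower, at 1.89 against 7.11, a log2 ratio of -1.91 (-2.21 to -1.62). Trim30d and Slfn8 were the highest there, with ratios of 2.15 (1.55 to 2.80) and 2.05 (1.37 to 2.80). Of the effectors higher in each, 11 were shared, Ifit1 and Trim30d among them, which is 52.4% of the knock-in list and 50% of the WT list. Of all effectors measured, 22 of 39 were higher in WT and 21 of 38 in the knock-in. Beside these, the overlap does not set the shared genes apart, and no overlap over all genes was counted. The share of vascular nuclei differed between the WT libraries as given above, and its part in these lists was not tested.

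Likeness of pattern was described over 28 points, 7 classes in 4 libraries, as Pearson's r of log2(CPM + 1) for genes with at least 200 UMIs. The points share libraries, depth and class composition, so r is a description. Among the 9 genes, Irf7 was below the minimum and the others ranged from 0.90 for Trim30a with Parp14 to 0.04 for Stat2 with Ifit2. Of 15777 genes compared, the most like Oasl2 were Gm4951 (0.92), Nlrc5 (0.91) and Trim30d (0.88). For Rnf213 they were Herc6 (0.95), Tns1 (0.95) and Plin2 (0.93), and for Ifih1 they were Il15 (0.91), Rgl3 (0.91) and Trim30d (0.90). Parp14 was most like Apobec1 (0.97), Lair1 (0.96) and Pon3 (0.96), and Trim30a most like Mlxipl (0.95), Prkch (0.94) and Slc40a1 (0.94). Xaf1 was most like Tbc1d5 (0.94), Wnk1 (0.93) and Smad7 (0.93), and Ifit2 most like Socs6 (0.88), Lsm6 (0.84) and Tmem184b (0.84). Stat2 had the lowest maximum, with Pepd (0.78), Epn1 (0.77) and Mcm3ap (0.77).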

How the data were processed

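Single-nucleus RNA was counted in 4 libraries of the 10x Chromium 3' v3.1 kit, 1 per group. The authors deposited UMI counts per gene and nucleus as filtered matrices, made with Cell Ranger 5.0.1 per the file headers. Per the submitters' processing notes the version was 3.1.0 and the genome mm10. The versions could not be reconciled, and no label or header used here says how intronic reads were treated. Deposited barcodes numbered 9466, 10453, 7203 and 11514 in exercised knock-in, knock-in without exercise, exercised WT and WT without exercise, with 64158446 to 91676884 UMIs a library.

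Nuclei were kept from 500 genes and 1000 UMIs upward if mitochondrial genes gave less than 5% of UMIs, and 5.50% to 8.98% per library were left out as likely doublets by their closeness to simulated pairs. Counts scaled to 10000 per nucleus, 2000 variable genes, 30 principal components and 15 neighbours gave 31 Leiden clusters at resolution 1.0 (Python 3.11.15, numpy 2.4.6, igraph 0.11.9). Clusters were named from marker lists, and 8 stayed unnamed but are in the sums over all kept nuclei. Class names were rebuilt here and may differ from the authors'.

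UMIs were summed per class and library and divided by the class total. Intervals are 95% and exact (scipy 1.17.1); UMIs of 1 nucleus are not independent, so they are too narrow where a few nuclei hold many UMIs. A count of 0 was given the limit of 3 UMIs. A gene was measured at 50 UMIs over both libraries, and a difference was counted above 1.5-fold. The log2 ratio with its interval and the thinning were tested on simulated independent counts. For the ratio, the simulated class totals were larger than those of microglia in any library. Filters, doublets, clusters and class names were not tested in this way. The members, lists and markers were chosen with earlier results of these data known. Other genes of the lists are named when they had at least 100 UMIs over both libraries and were among the 3 with the largest log2 ratio of their list, or are said to be chosen after their values were seen; 5 symbols of the lists are not analysed here. Alternatives changed the filters, doublets, resolution, variable genes, depth, minimum UMIs and scaling, with edgeR 4.0.16 and DESeq2 1.42.0 used for scaling factors alone (R 4.3.3). Gene positions are from GENCODE M21 on GRCm38.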

Additional observations from a re-analysis of the deposited data

Results flagged for a closer look

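Stat2 moved in opposite directions with exercise in the knock-in and in WT in granule, CA1 and CA3 neurons and in the sum over all kept nuclei, and the difference between these effects was not tested, since each group is 1 library. Its log2 ratio for exercise in the knock-in and in WT was 0.58 and -0.37 in granule neurons, 1.03 and -0.46 in CA1, 0.88 and -0.36 in CA3, and 0.78 and -0.30 over all kept nuclei. The median over all genes had the same signs, at 0.11 and -0.12 in granule neurons and 0.14 and -0.18 in CA1. That median was 0.17 and -0.18 in CA3 and 0.09 and -0.10 over all kept nuclei, so opposite signs are not particular to Stat2. In CA2 neurons both Stat2 ratios were above 0, at 1.33 between the knock-in libraries and 0.21 (-0.33 to 0.75) between the WT libraries. They were also above 0 in vascular nuclei, at 0.67 and 0.10, with the nucleus of 81 member UMIs included. In inhibitory and subicular neurons and in oligodendrocytes the WT ratio was below 0 with an interval that held 0, and in astrocytes it was 0.49 (-0.26 to 1.26). The levels behind the first 4 Stat2 pairs, read as knock-in over WT with and without exercise, gave 0.72 and -0.23 in granule neurons, 1.09 and -0.41 in CA1, 0.71 and -0.54 in CA3, and 0.79 and -0.29 over all kept nuclei. Over the alternatives of processing, the ratio with exercise fell as low as 0.50 in granule neurons and 0.14 in CA3, under 1.5-fold. Its lowest value was 0.83 in CA1 and 0.63 over all kept nuclei, still over 1.5-fold. Trim30a over all kept nuclei was the other gene of this kind, at 1.30 for exercise in the knock-in and -0.66 in WT, and at 0.74 for knock-in over WT with exercise and -1.21 without. These differences were not tested either, and each pair of ratios is built from the same 4 values.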

How the results depend on the processing

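No paired analysis was possible because each group is 1 library. Over the alternatives, 128 of 135 medians over the members, 966 of 1112 levels and 923 of 992 log2 ratios stayed within the counting interval of the value reported (for a median, the median of the members' intervals). With each nucleus thinned to 1500 UMIs, the median for genotype with exercise in granule neurons was 0.93 (0.13 with all UMIs), that over all kept nuclei was -0.59 for genotype without exercise (0.15) and 1.91 for exercise in the knock-in (1.30), and Stat2 in microglia for genotype with exercise was -0.15 (0.96). With a minimum of 20 UMIs, or none, the granule median for exercise in WT was -0.071 (-0.37). With a minimum of 200 UMIs the median for exercise in WT over all kept nuclei was -0.017 (0.64). Without the vascular class, an alternative chosen after seeing the data, the median for genotype with exercise was 1.01 (0.62) and Irf7 for exercise in WT was -0.60 (0.74). The causes were not tested. The border marker and highest-nucleus alternatives were also chosen after seeing the data. Counts of under 20 UMIs limit most microglial values outside exercised knock-in.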
